A study of Mus musculus with 18 samples.

Results

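Within the breast cancer model of brain metastasis, 6 libraries were split by their own level of Cd8a, which encodes the alpha chain of the CD8 co-receptor. The sets were chosen by measured values: a level of Cd8a above 3 CPM, that is counts per 1000000 counts of the library total, made a library high, and 3 or below made it low. Replicates 14, 15 and 16 were the 3 high libraries and replicates 17, 18 and 19 the 3 low ones, so the split covers 6 of the 18 libraries in the series. All 18 are poly(A)+ RNA-seq of peritumoral brain tissue from mice of WT genotype, taken 10 days after injection of 40000 tumour cells, and both breast sets carry EO771-BrM3, brain-seeking cells derived from the mouse mammary tumour line EO771. No label gives the low and high mice a different treatment, and no tumour-free brain is among the samples. The 12 other libraries, 6 with B16-F10-BrM4 melanoma cells and 6 with 482N1 lung cancer cells, were treated alike and served only to follow the same genes in libraries that the split did not use. No label says more of how the samples of a model differ, so p-values measure the spread between these samples, which may be partly technical.

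CD8 T cells recognise peptides on MHC class I molecules and kill through granules that hold perforin and granzymes. Interferon gamma, which activated T and NK cells secrete, induces CIITA, the master regulator of MHC class II genes, as well as guanylate-binding proteins and the chemokine CXCL9, which attracts T cells through CXCR3. Type I interferons induce an overlapping set of antiviral genes, among them Usp18, Rsad2 and Isg15.

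The start regions of 4 genes are shown because class II genes and Gbp2, an interferon gamma target, were higher in the high set, while Rsad2, of the type I interferon list, had a lower mean there. They are RefSeq sequences on GRCm38.p6 of 300 bases each, 5' to 3' on the gene's strand. The deposited files use GRCm39, so these coordinates do not apply to them. In the first pair, capitals mark CTGATTGG, the inverted CCAAT sequence known as the Y box of class II promoters. H2-Aa lies at chr17:34287774-34288073 on the minus strand and H2-Eb1 at chr17:34305617-34305916 on the plus strand.
H2-Aa: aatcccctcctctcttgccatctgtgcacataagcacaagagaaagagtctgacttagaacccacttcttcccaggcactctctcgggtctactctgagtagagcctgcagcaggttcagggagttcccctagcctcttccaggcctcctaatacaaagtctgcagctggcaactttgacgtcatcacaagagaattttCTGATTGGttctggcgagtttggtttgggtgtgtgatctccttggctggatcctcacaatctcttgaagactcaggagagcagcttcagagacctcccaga
H2-Eb1: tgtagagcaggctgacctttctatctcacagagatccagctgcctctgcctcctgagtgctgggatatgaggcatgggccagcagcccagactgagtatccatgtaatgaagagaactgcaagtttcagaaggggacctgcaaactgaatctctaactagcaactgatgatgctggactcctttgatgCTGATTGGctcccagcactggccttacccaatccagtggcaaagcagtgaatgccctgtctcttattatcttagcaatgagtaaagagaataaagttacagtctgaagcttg
In the second pair, capitals mark GAAANNGAAA on either strand, the core of the interferon-stimulated response element. Gbp2 lies at chr3:142620413-142620712 on the plus strand and Rsad2 at chr12:26456403-26456702 on the minus strand.
Gbp2: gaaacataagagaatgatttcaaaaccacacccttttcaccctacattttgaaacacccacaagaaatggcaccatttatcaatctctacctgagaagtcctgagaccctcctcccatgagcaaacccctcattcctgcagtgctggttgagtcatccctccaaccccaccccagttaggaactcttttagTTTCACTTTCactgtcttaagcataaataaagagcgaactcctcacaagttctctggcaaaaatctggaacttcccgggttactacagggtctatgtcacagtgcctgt
Rsad2: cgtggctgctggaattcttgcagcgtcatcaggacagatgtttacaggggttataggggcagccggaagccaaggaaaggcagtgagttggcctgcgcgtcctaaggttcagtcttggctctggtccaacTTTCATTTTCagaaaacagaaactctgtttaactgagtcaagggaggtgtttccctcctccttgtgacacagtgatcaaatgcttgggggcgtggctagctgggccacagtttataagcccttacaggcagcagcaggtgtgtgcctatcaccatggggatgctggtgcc
Searched on both strands, CTGATTGG was found in 2 of the 3 class II promoters with an entry (H2-Aa and H2-Eb1) and in 4.10% of all 32851 promoters. GAAANNGAAA was found in 8 of 12 promoters of the type I interferon list, in 7 of 8 of the interferon gamma list, and in 3.44% of all promoters. A match describes these letters only. H2-Ab1, Ciita and Usp18 had no entry.

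The 3 high libraries held 101, 110 and 103 Cd8a counts, or 7.91, 8.20 and 7.60 CPM of the total. The 3 low libraries held 5, 7 and 5, or 0.398, 0.950 and 0.673 CPM. The lowest high library was thus at 7.60 and the highest low library at 0.950, with none near the threshold of 3. Cd8b1, the CD8 beta chain, and Cd3e, a chain of the T cell receptor complex, put the same 3 libraries on top. The summed CD8 T cell list did not, since Thy1, which neurons also express, made up most of it; its 3 highest libraries were 14, 15 and 19.

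The sets also differed in technical measures. Totals were 12764003, 13414227 and 13544054 counts in the high libraries and 12551756, 7366250 and 7432159 in the low ones, and in the 2 shallow libraries, replicates 18 and 19, a count of 3 corresponds to 0.407 and 0.404 CPM. The slope of log2 CPM on log2 transcript length, taken relative to the mean of the 6 libraries, was 0.136, 0.0994 and 0.0921 in the high libraries. It was 0.0459 in replicate 17 and fell below zero in the others, at -0.216 in replicate 18 and -0.157 in replicate 19. Both measures separated the sets without overlap (two-sided exact permutation p = 0.1 for the total and for the slope, the smallest that 3 against 3 can give). The mitochondrial share of counts did not separate them (2.28% against 2.24% on average, exact permutation p = 1). The sets also follow consecutive library numbers and the labels name no batch, so Cd8a, depth, length slope and any shared handling cannot be told apart in these libraries. For that reason some list medians and gene fold changes are also given over replicate 17, whose depth and slope were near the high set, and over replicates 18 and 19; for the other genes the level in each library shows the same comparison.

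Fold changes went with transcript length. In the lowest of 10 equal bins of transcript length, with a median of 709 bases, the median log2 fold change was -0.12 over replicate 17 and -0.59 over replicates 18 and 19. In the highest bin, with a median of 8161 bases, it was 0.18 and 0.66. Both curves climbed with length, the one over replicates 18 and 19 more steeply.

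**Figure D1:**
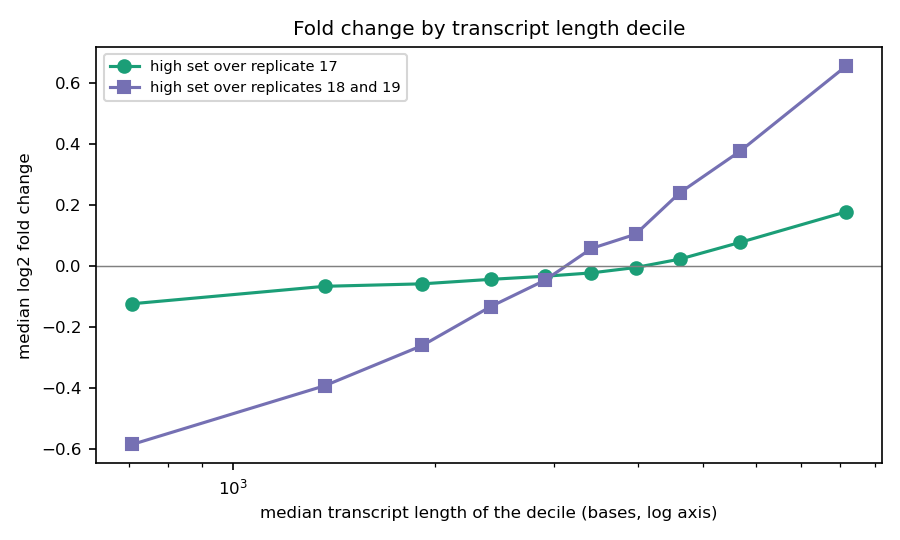
Median log2 fold change of the 3 high-Cd8a libraries over replicate 17 (circles) and over the mean of replicates 18 and 19 (squares), for genes in 10 bins of transcript length (log axis, bases). The shortest bin is at -0.12 and -0.59 and the longest at 0.18 and 0.66.

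Over 16894 genes tested in the 6 breast libraries, 42 were called higher in the high set (0.249%) and 2 lower (0.0118%) at an adjusted p under 0.05 in edgeR's quasi-likelihood fit. Without a p, 3041 genes (18%) had all 3 high libraries above all 3 low ones and 2833 (16.8%) had them all below. Because the split was made from RNA of the same libraries, these calls describe the 6 libraries and carry no weight as tests. The number called was unstable: 3033 genes had an adjusted p under 0.1, DESeq2 called 1218 higher and 1449 lower, and the same fit called 2929 and 3006 without replicate 17 but 7 and 0 without replicate 19. The levels of single genes are therefore given in each library. Levels are CPM on TMM-scaled library sizes unless stated, fold changes are fitted log2 values with their standard error (SE), and those over replicate 17 or over replicates 18 and 19 are on log2(CPM + 0.5).

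Most T cell genes were higher in the high set. Of 20 tested members of the CD8 T cell list, 14 had no overlap between the sets in that direction, beside 18% of all genes tested. The fit called 4 of the 20, beside 0.249% of all genes tested. The median log2 fold change was 1.05, against -0.0027 over all genes tested. It was 1.09 over replicate 17 and 0.89 over replicates 18 and 19. In these bulk libraries fewer T cells and less T cell RNA per cell cannot be told apart.

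Cd8b1 was 5.09, 3.89 and 3.23 CPM in the high libraries and 1.39, 0.707 and 0.424 in the low ones (log2 fold change 2.12, SE 0.37). Cd3g, another chain of the receptor complex, was 4.78, 5.07 and 4.96 against 1.00, 1.84 and 0.990 (1.99, SE 0.28). Trac, the constant region of the receptor's alpha chain, was 6.78, 5.88 and 4.74 against 1.93, 1.56 and 1.84 (1.68, SE 0.25). In all 3 genes the lowest high library lay above the highest low one, and replicate 17, at full depth, lay with the low libraries. The log2 fold change of Cd8b1 was 1.26 over replicate 17 and 2.09 over replicates 18 and 19, and that of Cd3g was 1.85 and 1.54. Cd5, an inhibitory surface receptor of T cells, had 27, 25 and 36 counts in the high libraries and 6, 3 and 2 in the low ones. Several members hardly differed: the median of the list hides Thy1 at 525 ± 54.2 against 509 ± 97.5 CPM (SD, n = 3 each) and Tcf7, a transcription factor of naive and memory T cells, at 11.8 ± 0.348 against 10.9 ± 2.33.

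Receptors of activated T cells were among the called genes. Icos, a co-stimulatory receptor, was 5.78, 5.36 and 6.47 CPM against 1.00, 0.566 and 1.13 (2.66, SE 0.28). Il2rb, the beta chain of the interleukin 2 receptor, was 14.3, 15.2 and 15.8 against 6.02, 5.23 and 6.08 (1.38, SE 0.17). Neither gene had an overlap, and within each set the libraries were close. Icos was at 2.08 over replicate 17 and 2.27 over replicates 18 and 19. Of Foxp3, the transcription factor of regulatory T cells, 12, 21 and 19 counts were found in the high libraries and 3, 0 and 1 in the low ones. Cd4 itself did not follow, with a log2 fold change of -0.13.

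The killing machinery was uneven. Of 17 cytotoxic effector genes, 8 had no overlap upward and 3 were called, beside 18% and 0.249% of all genes tested. The list median was 0.85, with 0.93 over replicate 17 and 0.62 over replicates 18 and 19. Nkg7, a protein of cytotoxic granules, was 6.40, 6.61 and 5.53 CPM against 1.70, 1.56 and 1.98 (1.82, SE 0.23), with 1.60 over replicate 17 and 1.56 over replicates 18 and 19. Prf1, which encodes perforin, was 3.54, 3.38 and 3.95 against 1.62, 1.56 and 1.27 (1.27, SE 0.25). Gzmb, granzyme B, differed less, at 15.9, 15.4 and 21.8 against 7.48, 10.9 and 11.5 (0.85, SE 0.22). Gzma, granzyme A, overlapped, at 6.78, 8.38 and 11.9 against 4.47, 11.9 and 8.77, as did the chemokine gene Ccl5 at 23.2 ± 2.80 against 22.9 ± 5.52 CPM (SD, n = 3 each). The cytokine gene Ifng had 15, 24 and 12 counts in the high set and 3, 2 and 4 in the low set.

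Checkpoint receptors did not move as 1 group. Lag3, an inhibitory receptor of T cells that binds class II, was 34.3, 22.3 and 22.8 CPM against 11.3, 8.91 and 7.50 (1.49, SE 0.23). Pdcd1, which encodes PD-1, went the other way, at 8.32, 9.41 and 10.4 against 10.6, 20.2 and 15.3 (-0.69, SE 0.23). Replicate 17 was nearly level with the high libraries for Pdcd1, with a log2 fold change of -0.17 over it and -0.88 over replicates 18 and 19. Cd274, which encodes the ligand PD-L1, was 41.2, 51.7 and 54.2 against 32.5, 43.5 and 29.6 and overlapped. Of 11 tested checkpoint genes, 7 had no overlap upward and 1 downward, beside 18% and 16.8% of all genes tested.

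**Figure D2:**
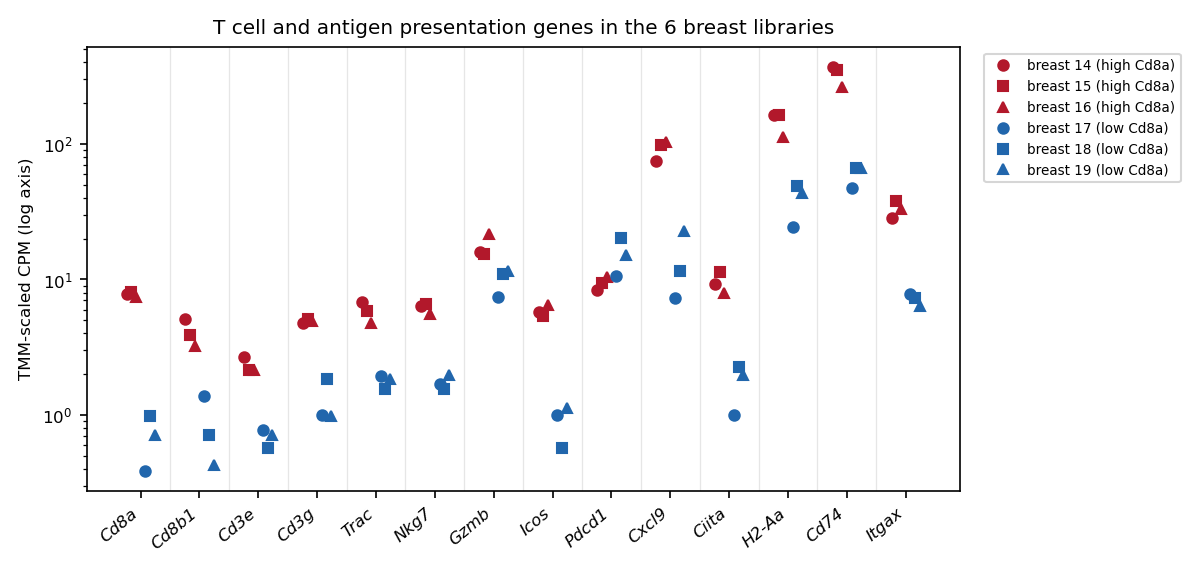
TMM-scaled CPM (log axis) of 14 genes of T cells and antigen presentation in each of the 6 breast libraries, red for high and blue for low Cd8a. The sets do not overlap for any of the 14, and Pdcd1 alone lies lower in the high set.

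MHC class II genes had the largest median of the 40 lists, 1.88. All 7 members were higher without overlap and 6 were called, beside 18% and 0.249% of all genes tested. Ciita, the regulator of these genes, was 9.25, 11.3 and 7.97 CPM against 1.00, 2.26 and 1.98 (2.53, SE 0.30). Cd74, the invariant chain that escorts class II molecules, was 369, 351 and 262 against 47.1, 66.2 and 66.2 (2.45, SE 0.20). H2-Aa, a class II alpha chain whose promoter is printed above, was 162, 164 and 112 against 24.4, 49.3 and 43.4 (1.92, SE 0.26). In each of these 3 genes replicate 17 was the lowest of all 6 libraries, and the list median was 2.54 over replicate 17 and 1.56 over replicates 18 and 19. H2-DMb1, a chain of the molecule that loads peptide onto class II, differed least, at 26.6 ± 0.63 against 16.4 ± 4.07 CPM (SD, n = 3 each). Reads of near-identical H2 genes may be divided among them, so the levels of single H2 genes are uncertain.

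Itgax, the integrin CD11c of dendritic cells and activated microglia, was 28.6, 38.1 and 33.3 CPM against 7.87, 7.35 and 6.37 (2.20, SE 0.18). Dendritic cell markers were sparse: Xcr1 had 13, 13 and 8 counts in the high libraries and 1, 3 and 1 in the low ones, and Clec9a 9, 7 and 9 against 3, 0 and 3. Markers of cells other than T cells moved as well. The summed dendritic cell list ran from 357 to 378 CPM in the high set and from 272 to 331 in the low set. Of its 8 tested members 5 were higher without overlap, beside 18% of all genes tested. Most of that sum was 1 gene, Fscn1, with 4036, 3935 and 4418 counts against 3742, 1592 and 1692, so the sum says little of the sparse markers. Of the 6 markers in the NK cell list 5 were tested and none was without overlap; Ncr1 was at 9, 16 and 16 counts against 6, 9 and 4. Homeostatic microglial genes summed to 1132 to 1415 CPM against 1034 to 1106. Of 10 members 5 were higher and 1 lower without overlap, beside 18% and 16.8% of all genes tested. The lower one was Fcrls, at 78.9, 56.1 and 56.3 CPM against 113, 99.0 and 86.2. The part of these other cell types in the differences of the T cell and class II genes was not tested.

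Interferon gamma targets were higher and MHC class I genes less so. Cxcl9 was 75.1, 99.0 and 104 CPM against 7.33, 11.5 and 22.8, with the largest fold change among genes named for their size (2.77, SE 0.34). It was at 3.56 over replicate 17 and 2.47 over replicates 18 and 19. Gbp2, a guanylate-binding GTPase, was 295, 350 and 341 against 126, 156 and 164 (1.15, SE 0.16). Both were separated widely, whereas Cxcl10, a second ligand of CXCR3, overlapped at 124, 167 and 215 against 124, 196 and 155. Of 12 tested T cell chemokine genes 3 were higher and 1 lower without overlap, beside 18% and 16.8% of all genes tested. The median of that list was 0.060, and Cxcr3 itself had a log2 fold change of -0.21. Of 12 tested interferon gamma genes 8 were higher without overlap, with a median of 0.67; Irf8, Gbp4 and Gbp6 were listed at 0 in all 6 libraries. Of 12 class I genes 7 were higher without overlap (median 0.49), with H2-K1 at 878, 905 and 871 against 500, 596 and 550 CPM.

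Beyond these groups, 4 genes were among the 12 ranked highest by the smaller of the fold changes over replicate 17 and over replicates 18 and 19. Nos2, the inducible nitric oxide synthase, was 22.7, 15.9 and 18.8 CPM against 6.86, 5.80 and 2.97 (1.83, SE 0.27). C1s1, a complement protease, was 13.2, 12.7 and 13.6 against 3.78, 3.68 and 4.67 (1.71, SE 0.19). Gbp8, another guanylate-binding protein, was 14.8, 17.3 and 16.9 against 6.09, 7.07 and 5.24 (1.41, SE 0.18). Ighg2c, the constant region of an IgG subclass, was 7.63, 10.4 and 16.1 against 3.08, 1.70 and 1.56 (2.34, SE 0.34). All 4 were separated between the sets over replicate 17 and over the shallow pair alike.

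Genes lower in the high set included several that myeloid cells express. Fabp4, a fatty acid carrier of macrophages and endothelium, was 11.1, 12.8 and 21.4 CPM against 48.8, 87.0 and 38.6 (-1.94, SE 0.32). Chil3, a chitinase-like protein of alternatively activated macrophages, was 8.25, 9.63 and 13.1 against 25.7, 32.2 and 26.6 (-1.44, SE 0.20). These were the 2 genes called lower. Fabp4 was at -1.72 over replicate 17 and -1.96 over replicates 18 and 19. S100a8, a calcium-binding protein abundant in neutrophils, was 25.0, 19.8 and 44.5 against 91.6, 120 and 56.0 (-1.58, SE 0.32), and S100a9, its partner, was 33.7, 24.9 and 50.4 against 111, 124 and 61.1 (-1.45, SE 0.29). In all 4 genes the high libraries lay below the low ones, with replicate 16 the highest of its set. The neutrophil list was mixed. Of its 7 tested members 2 were lower and 1 higher without overlap, beside 16.8% and 18% of all genes tested. The higher one was Ly6g, at 2.56 ± 0.399 against 1.41 ± 0.374 CPM (SD, n = 3 each). The list median was -0.36 in the fit and -0.60 over replicate 17, but 0.28 over replicates 18 and 19. Of 12 tested monocyte and border macrophage genes 3 were higher and 2 lower without overlap, beside 18% and 16.8% of all genes tested. Their median was -0.16, with 0.0042 over replicate 17 and -0.31 over replicates 18 and 19.

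Mmp3, a matrix metalloprotease, was 217, 553 and 777 CPM against 1173, 1960 and 1335 (-1.53, SE 0.38). Cxcl1, a neutrophil-attracting chemokine, was 26.7, 26.3 and 36.4 against 67.2, 108 and 44.7 (-1.30, SE 0.28). Spp1, osteopontin, was 337, 414 and 668 against 909, 1403 and 829 (-1.15, SE 0.28). All 3 were separated, with replicate 14 or 15 lowest and replicate 18 highest.

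Single genes of epithelial, germline and dividing cells also had lower means in the high set, but their lists were mixed. Of 8 tested epithelial and mammary tumour genes 1 was higher and 2 were lower without overlap, beside 18% and 16.8% of all genes tested. Their median was 0.11. Of 6 tested germline genes none was without overlap, with a median of -0.49. Krt8, a keratin of epithelial cells, was 57.4, 61.6 and 95.3 CPM against 117, 163 and 104 (-0.84, SE 0.23). Rhox5, a germline homeobox gene read in this model, was 63.0, 70.7 and 117 against 108, 203 and 134, and Cdk1, a kinase of dividing cells, was 62.0, 66.9 and 100 against 100, 168 and 110. Replicate 16 was level with replicate 17 in Rhox5 and Cdk1. The cell cycle list had 3 of 20 members lower without overlap, a share below the 16.8% of all genes tested, and a median of -0.30; its summed level was 1027 to 1424 CPM in the high set and 1234 to 1611 in the low set. Krt18, a keratin that pairs with Krt8 and the epithelial gene higher without overlap, was 2.85, 3.45 and 2.30 against 0.925, 1.27 and 1.84. The part of tumour cell content in the differences was not tested.

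**Figure D3:**
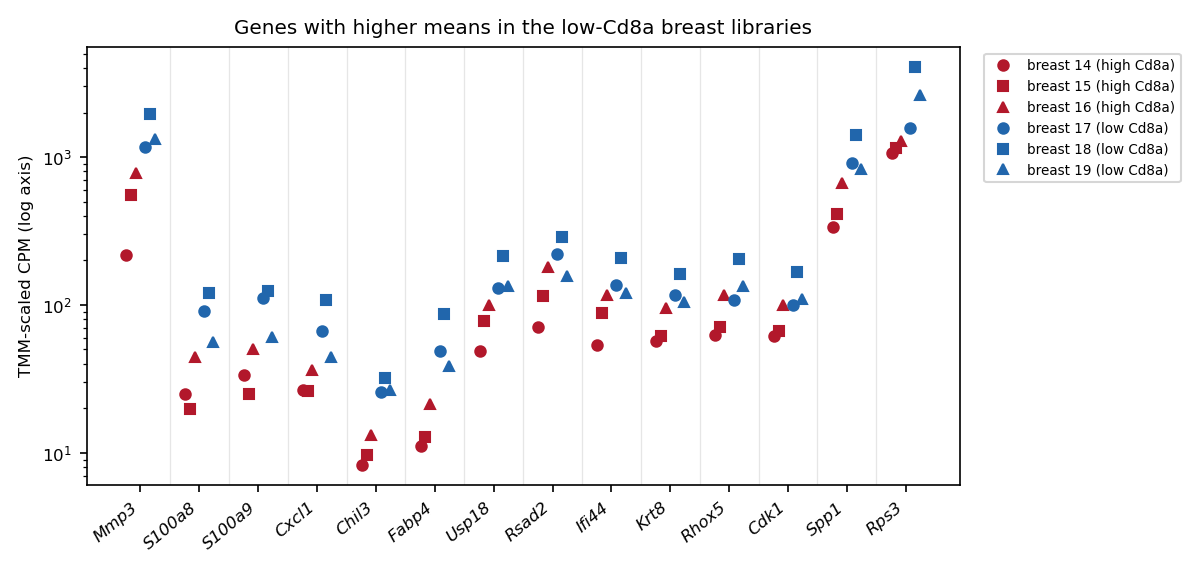
TMM-scaled CPM (log axis) of 14 genes with a lower mean in the high-Cd8a set, in each of the 6 breast libraries, red for high and blue for low Cd8a. Mmp3 runs from 217 to 777 in the high libraries and from 1173 to 1960 in the low ones, while Rsad2 and Rhox5 overlap.

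Type I interferon genes leaned in the opposite direction to the interferon gamma genes. Usp18, which dampens interferon signalling, was 49.2, 77.7 and 99.2 CPM against 131, 214 and 134 (-1.08, SE 0.27). Rsad2, the antiviral protein viperin whose promoter is printed above, was 70.8, 114 and 182 against 220, 289 and 157 (-0.86, SE 0.31). Ifi44, another antiviral response gene, was 53.3, 88.9 and 117 against 136, 207 and 120 (-0.83, SE 0.28). Usp18 and Ifi44 did not overlap between the sets, and replicate 16 lay above replicate 19 in Rsad2. Of the 20 list members 5 (Irf7, Isg15, Oas1a, Usp18 and Ifi44) were lower without overlap, none was higher without overlap and none was called. Over all genes tested, 16.8% were lower and 18% higher without overlap. The median was -0.45, with -0.30 over replicate 17, -0.55 over replicates 18 and 19, and -0.35 with the length trend removed. Zbp1, Stat2, Oasl2 and Oas2 had fitted changes above zero, of 0.19, 0.25, 0.23 and 0.19.

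Lists of short and of long transcripts differed in the direction of the length trend. The cytosolic ribosomal protein genes, whose transcripts are short, had a median of -0.75 with 15 of 19 tested members lower without overlap. The list of long neuronal genes had 0.94 with all 12 higher without overlap. Among all genes tested, 16.8% were lower and 18% higher without overlap. Over replicate 17 these medians were -0.28 and 0.56, and over replicates 18 and 19 they were -0.92 and 1.21. With the trend removed they were -0.60 and 0.43, so the ribosomal median kept most of its size and the long neuronal one did not. Rps3, a ribosomal protein gene, was 1073, 1157 and 1287 CPM against 1576, 4069 and 2643. Grin2b, a glutamate receptor subunit with a long transcript, was 142, 111 and 111 against 55.1, 26.3 and 36.5. Removing the trend moved the medians of the CD8 T cell and MHC class II lists further from zero, from 1.05 to 1.24 and from 1.88 to 2.03. Red blood cell genes changed sign, with 0.50 over replicate 17 and -0.68 over replicates 18 and 19.

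**Figure D4:**
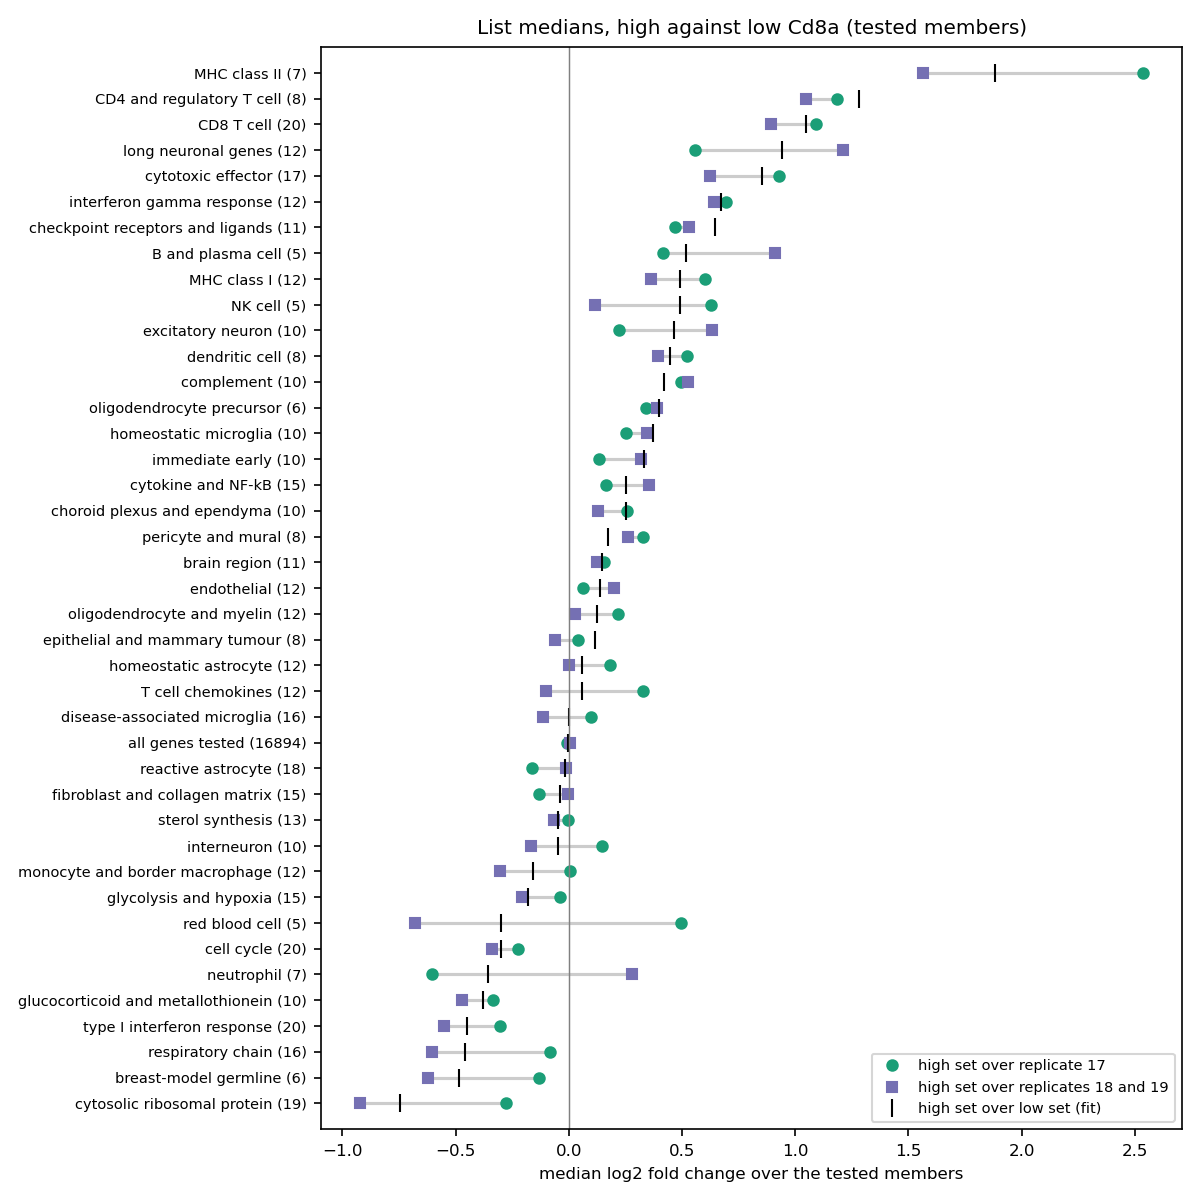
Median log2 fold change of the tested members of 40 gene lists and of all genes tested (number in brackets), for the high-Cd8a set over replicate 17 (circles), over replicates 18 and 19 (squares) and over the low set in the fit (bars). MHC class II is at 1.88 and the ribosomal list at -0.75 in the fit, and the circles and squares of the neutrophil and red blood cell lists lie on opposite sides of 0.

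The same genes were then followed in the 12 lung and melanoma libraries, which the split did not use. There Cd8a was 0 CPM in 4 melanoma libraries, 0.160 in replicate 2 and 3.88 in replicate 1. In the lung libraries it was 1.15, 0.0796, 0.894, 0, 2.25 and 0.911 CPM in replicates 7, 8, 9, 10, 11 and 13, on 0 to 29 counts. The libraries fall into well-read and nearly unread ones more than along a range: melanoma replicate 1 stands alone in its model, and lung replicates 8 and 10 stand apart in theirs. A fit with 1 level per model and a slope on log2(Cd8a CPM + 0.5), in log2 units per doubling, called 301 of 17695 genes rising (1.70%) and 2 falling (0.0113%) with edgeR at an adjusted p under 0.05, with 981 and 396 at an unadjusted p under 0.05.

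These calls rested on 1 library. Without melanoma replicate 1, none of the 301 was called and no gene rose or fell, although 658 rose at an unadjusted p under 0.05. In the lung libraries alone none was called either, with 1935 rising at an unadjusted p under 0.05, and in the melanoma libraries alone 53 were. DESeq2 was not run on this slope; limma voom called 240 rising. Without melanoma replicate 3 the count went up to 889 rising and 409 falling.

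Within that limit, class II genes had the largest median slope, 1.63, among lists with more than 1 gene tested there, and all 7 rose. The NK cell list, with 1 gene tested, was at 2.34. Cd74 was 417 CPM in melanoma replicate 1 and 7.57 to 12.8 in the other 5. In the lung libraries Cd74 was 687, 56.5, 369, 55.3, 368 and 167 CPM in replicates 7, 8, 9, 10, 11 and 13. Its slope was 1.71 (SE 0.14, edgeR adjusted p = 0.000121), and without melanoma replicate 1 it was 1.55 with an adjusted p of 0.308. Replicates 8 and 10, nearly without Cd8a, were the lowest lung libraries, as the low breast libraries were in theirs.

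T cell and effector genes followed. Of 18 tested CD8 T cell genes 10 rose and of 16 cytotoxic genes 11 did, with median slopes of 0.82 and 1.26. Gzmb had a slope of 2.55 (SE 0.25, edgeR adjusted p = 0.000295), at 16.7, 0.154, 10.1, 0.247, 23.2 and 6.28 CPM in lung replicates 7, 8, 9, 10, 11 and 13. Pdcd1 rose as well, by 1.26 (SE 0.11, edgeR adjusted p = 0.000121), while in the breast libraries its fitted change was -0.69. Cxcl9 rose by 2.43 (SE 0.36, edgeR adjusted p = 0.00335) and Gbp2 by 1.88 (SE 0.35, edgeR adjusted p = 0.0142). Without melanoma replicate 1 the adjusted p of Gzmb was 0.132 and that of Cxcl9 and Gbp2 0.308, with slopes of 2.92, 3.74 and 3.13. Among the class I genes all 12 rose, and among the 12 tested interferon gamma genes 8 did.

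For the type I interferon list the breast sets and the other models showed opposite signs. In the 12 libraries 14 of its 20 members rose, with a median slope of 0.85, and none fell. Rsad2 was 109 CPM in melanoma replicate 1 and 7.14 to 29.3 in the other 5, and 31.2, 24.0, 20.2 and 20.8 in lung replicates 7, 9, 11 and 13 against 10.4 and 12.99 in replicates 8 and 10. Its slope was 0.90 (SE 0.14, edgeR adjusted p = 0.00454), and 0.65 without melanoma replicate 1 (adjusted p = 0.799). Usp18 had a slope of 0.85 (SE 0.21) that missed the threshold (edgeR adjusted p = 0.0741). With the mean of the cell cycle genes as a further term, an alternative chosen after seeing the data, the list median was 0.62 and 10 of 20 rose. In the breast libraries Usp18 was higher in the low-Cd8a set without overlap, while Rsad2 had a higher mean there but overlapped. The difference between breast and the other models was not tested.

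Of the genes with the largest decreases in breast, Fabp4 was not tested in the 12 libraries. Mmp3 was at most 2.87 CPM in any of the 12 libraries, against 217 to 1960 in the breast libraries. S100a8 had a slope of 0.59 (SE 0.60, edgeR adjusted p = 0.768) and Chil3 of 1.03 (SE 0.52, edgeR adjusted p = 0.682). In the lung libraries both were lowest in replicates 8 and 10, nearly without Cd8a, the reverse of the breast sets. S100a8 was 55.7, 26.8, 5.66 and 8.27 CPM in replicates 7, 9, 11 and 13 against 3.61 and 1.89 in 8 and 10. Chil3 was 15.8, 26.4, 3.56 and 9.78 against 1.15 and 0.411. In melanoma they were at most 0.757 and 0.907 CPM. Cav1, another gene lower in breast, was lowest in lung replicate 11, at 51.1 CPM. Of the 40 breast genes called higher that were tested here, 24 rose (60% of these and 7.97% of the 301). Of the 3026 genes higher without overlap that were tested here 135 rose, 4.46% of them and 44.9% of the 301.

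**Figure D5:**
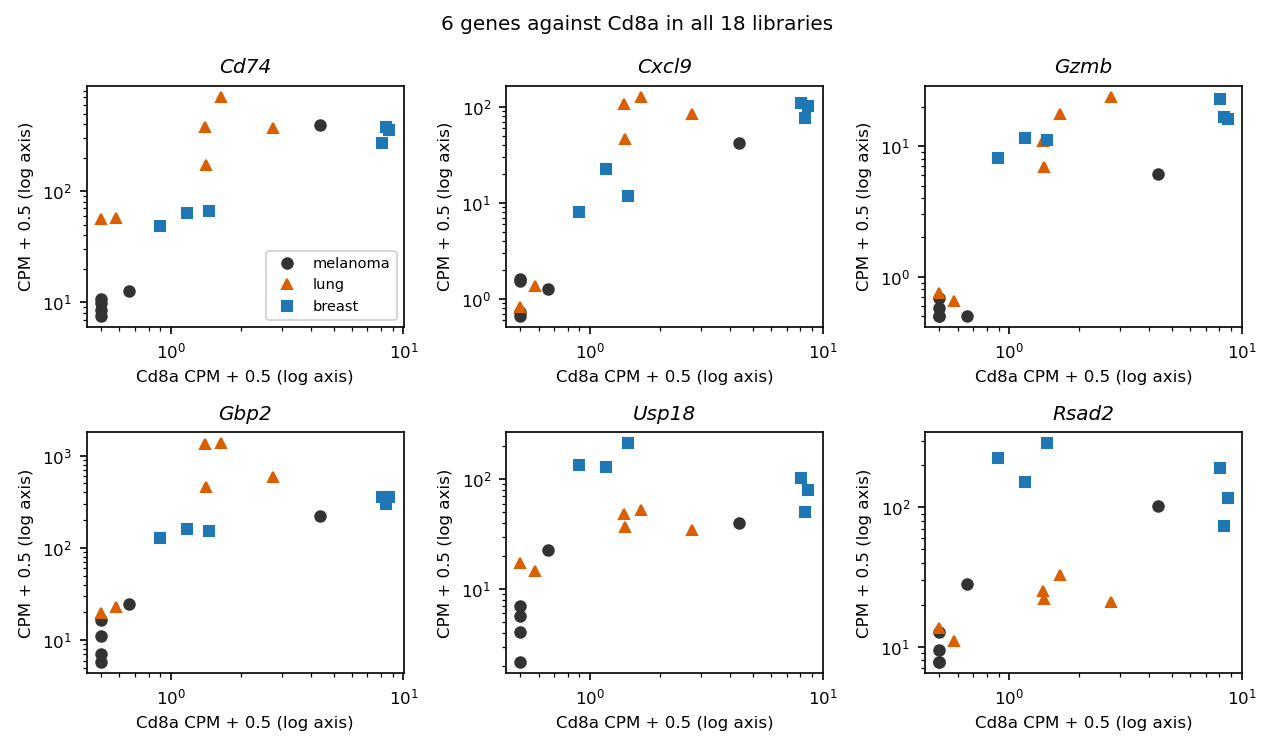
Levels of 6 genes against Cd8a in all 18 libraries, both as CPM + 0.5 on log axes, with TMM factors set over all 18, by tumour model. Cd74, Cxcl9, Gzmb and Gbp2 are lower in breast replicates 17 to 19, lung replicates 8 and 10 and melanoma replicates 2 to 6 than in the other libraries of each model, and Usp18 lies higher in the 3 breast libraries with low Cd8a than in the 3 with high Cd8a.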

How the data were processed

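The deposited count table holds raw counts per versioned mouse Ensembl gene for the 18 libraries, unscaled by the authors, judged from its whole numbers. Poly(A)+ RNA went into directional libraries, per the labels' protocols; bcl2fastq and the build GRCm39 come from the submitters' processing notes, and for aligner, counter and strandedness the sources used here give nothing. A deposited CPM table was not used here. Symbols, chromosomes and the length of the longest transcript were looked up by gene ID in GENCODE M21 (GRCm38) (52083 of 55416 IDs, 99.8% of reads), and promoters from RefSeq.

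Cd8a CPM on library totals split the 6 breast libraries. Their counts entered a robust quasi-likelihood fit in edgeR 4.0.16 under R 4.3.3, with TMM (trimmed mean of M values) factors and filterByExpr, and p-values were adjusted by Benjamini-Hochberg over every gene in the fit; the SE is the fold change divided by the square root of F. In the 12 other libraries, 1 coefficient per model and a slope on log2(Cd8a CPM + 0.5) were fitted in the same way. Library measures were compared by exact permutation over 20 splits. The length slope is that of log2(CPM + 0.5), centred per gene, on log2 transcript length. Totals were 7366250 to 14533877 counts. No pair of breast libraries differed by as little as sampling noise (smallest chi-square per degree of freedom 4.28). The fits were tested on simulated data.

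The members, and the 40 gene lists (485 genes, 456 tested), were chosen with earlier results of these data known. Named genes were all tested members of the CD8 T cell, cytotoxic, checkpoint, class II and T cell chemokine lists; the 12 genes each way with the largest smaller fold change over replicate 17 and over replicates 18 and 19, at a mean of at least 5 CPM and without overlap; and 3 members of each other list by that fold change. Genes given outside this rule were chosen after their values were seen: Cd4, Xcr1, Clec9a, Fscn1, Zbp1, Stat2, Oasl2, Oas2, Irf7, Isg15 and Oas1a. So were the genes listed at 0 and the antigen receptor sums. Near-identical H2, immunoglobulin, interferon-induced and ribosomal genes may share reads, so that their levels are uncertain. Alternatives were other scalings, filters, tests (DESeq2 1.42.0, limma 3.58.1 voom), samples, a length trend removed by offset, thinning to equal depth, a continuous Cd8a term and each library left out. Some values are not reported here.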

Additional observations from a re-analysis of the deposited data

Results flagged for a closer look

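In 5 of 186 groups of 6 libraries (2.69%) the highest or lowest library lay far from the others, by Dixon's test at its 95% level; chance flags about 1 in 20 groups. Cd8a in melanoma replicate 1 was 3.88 CPM, and the other 5 melanoma libraries were between 0 and 0.160. In the breast libraries Tcf7 was 8.35 CPM in replicate 19 and 11.4 to 12.9 elsewhere. Gzmk, granzyme K, was 1.56 CPM in replicate 18 and 2.54 to 2.80 elsewhere. Tex19.1, a germline gene read in this model, was 69.4 CPM in replicate 18 and 25.6 to 41.9 elsewhere. Fdft1, squalene synthase, was 86.5 CPM in replicate 19 and 59.8 to 68.6 elsewhere.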

How the results depend on the processing

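In the breast libraries the counts of called genes depended on nearly every choice except scaling, a minimum of 1 CPM, voom and thinning, and where no reason is given the cause was not tested. Against 42 higher and 2 lower, there were 1552 and 1329 with no filter, 1218 and 1449 with DESeq2, 103 and 9 with the length trend removed, 19 and 0 with a continuous Cd8a term, and 0 and 0 with all 18 libraries in the fit, where 2516 had an unadjusted p under 0.05. Without replicates 18 and 19 they were 15 and 0, and 13 and 0 with the trend also removed (chosen after seeing the data); replicate 17 is then the only low library and is assumed to vary like the others. Leaving out 1 library gave 7 to 2929 higher and 0 to 3006 lower, the highest without replicate 17 and the lowest number of higher genes without replicate 19. Of the 44 calls, 44 were kept with the trend removed, 42 in DESeq2 and 12 without replicates 18 and 19.

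Genes without overlap numbered 3337 to 5196 higher and 3113 to 5104 lower with 1 library left out, 4890 and 4780 without replicates 18 and 19, and 4878 and 4742 with the trend also removed, fewer libraries making overlap rarer by construction. The difference in total was 3.2488e+06 to 5.84156e+06 counts with 1 library left out and 689005 without replicates 18 and 19; that in length slope was 0.165 to 0.296, and 0.0634 without both.

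Median fold changes held their direction for CD8 T cell (0.999 to 1.52 with 1 library left out), cytotoxic (0.66 to 1.01), class II (1.59 to 2.08) and type I interferon genes (-0.62 to -0.25). Neutrophil genes stayed below zero in the fits (-0.58 to -0.10 with 1 library left out), but on log2(CPM + 0.5) their median was 0.28 over replicates 18 and 19. CD8 T cell and cytotoxic genes were at 1.24 and 1.07 with the trend removed, 1.39 and 1.16 without replicates 18 and 19, and 1.39 and 1.17 with both changes, and CD8 T cell genes at 1.18 after thinning. Class II genes were at 2.58 without replicates 18 and 19 and 2.57 with the trend also removed. Reversed medians were those of monocyte and border macrophage genes (-0.16; 0.064 without replicates 18 and 19, 0.039 with the trend also removed, and -0.37 to 0.070 with 1 library left out, highest without replicate 18), interneuron genes (-0.049; 0.19 with the trend removed, 0.17 also without replicates 18 and 19), red blood cell genes (-0.30; 0.59 and 0.74 without replicates 18 and 19, before and after removing the trend) and epithelial genes (0.11; -0.069 without replicate 17 to 0.14 without replicate 18). Counting smaller shifts, 10 of 40 list medians changed sign in some setting, as did 13 of 180 named fold changes and 61 of 167 named slopes.

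In the 12 libraries, against 301 rising and 2 falling genes, there were 0 and 0 in lung alone, 53 and 0 in melanoma alone, 152 rising with the cell cycle term and 5 falling with a pseudocount of 0.1. Leaving out 1 library gave 0 to 889 rising, the fewest without melanoma replicate 1, and 0 to 409 falling. No paired analysis was possible because the models share no replicate numbers and no label pairs libraries of the 2 breast sets. Depth limits genes of a few CPM in replicates 18 and 19, where Cd8a rests on 7 and 5 counts.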

Other observations

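Summed over 8 immunoglobulin heavy chain constant genes, the level was 61.7, 71.3 and 89.1 CPM of the total in the high-Cd8a libraries and 31.4, 25.8 and 30.5 in the low ones. The light chain constant genes, at 2 to 13 counts, were not separated. Igkc, the kappa gene, was listed at 0, so that sum holds lambda genes only and cannot show whether kappa chains followed the heavy chains. Ighm, the constant region of IgM, was 44.4, 49.1 and 44.6 CPM in replicates 14, 15 and 16 against 23.6, 21.8 and 26.9 in replicates 17, 18 and 19. Jchain, which joins IgM and IgA units, was 2.31, 4.26 and 4.96 CPM against 0.848, 0.566 and 1.27. Neither overlapped between the sets. Summed over the light chain constant genes, the high libraries held 9, 2 and 13 counts and the low ones 5, 6 and 7. Summed over 348 immunoglobulin variable segments, chosen after their values were seen like the other sums given here, the high libraries held 123, 188 and 346 counts and the low ones 38, 24 and 19.

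T cell receptor variable segments, 42 of 170 of them read in any library, summed to 48, 50 and 46 counts in the high set and 12, 13 and 13 in the low set, or 3.76, 3.73 and 3.40 against 0.956, 1.76 and 1.75 CPM of the total. Cd79a, a chain of the B cell receptor, did not follow the immunoglobulin genes, at 0.771, 1.40 and 3.30 CPM against 2.85, 6.93 and 3.54. Igkc was listed at 0 in all 6. In the 12 other libraries the slopes of Ighm (0.18, edgeR adjusted p = 0.691) and Ighg2c (0.09, edgeR adjusted p = 0.809) on Cd8a missed the threshold.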
